A study of Mus musculus with 22 samples.

Results

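Gene expression 24 h after kainate was compared with sham in the nuclei of hippocampal neurons, using the 6 mRNA sequencing libraries made from NeuN+ nuclei, 3 per treatment, out of 22 samples in the series and 11 with mRNA counts. Adult male C57/BL6N mice, 8 per treatment, had received kainate, an agonist of kainate-type glutamate receptors, or 0.9% NaCl above the right hippocampus, and only kainate mice that had convulsive seizures were kept. The libraries are from the left, contralateral hippocampus, although a tissue protocol in the labels names the right one. Hippocampi were pooled within a treatment into 3 samples, nuclei were sorted on the neuronal protein NeuN, and each neuron library was made from 1 ng of RNA with 10 PCR cycles. The labels name no engineered allele in either group, and the contralateral tissue received no direct injection. A replicate is therefore a pool, and sorted nuclei hold nuclear and newly made RNA rather than the whole RNA of the cell.

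Total counts were 19391118, 45428465 and 20812104 in kainate replicates 1 to 3, and 21282859, 34995607 and 30645543 in the sham replicates. Rbfox3, which encodes NeuN, was at 183, 233 and 166 CPM (TMM-normalised read count scaled to a fixed library size) in the kainate and 226, 195 and 182 CPM in the sham libraries, and the summed CPM of 10 oligodendrocyte markers in NeuN+ libraries was 1.93% of that in the NeuN- libraries. The same ratio was 487% for neuron markers, 3.73% for microglia, 3.32% for oligodendrocyte precursor, 13.3% for astrocyte, 28.8% for pericyte and 60.2% for endothelial markers, and 114% and 103% for dentate and CA2 markers. These are ratios of means over libraries, and single pools differed. The astrocyte sum in NeuN+ against NeuN- nuclei was 477 against 698 CPM in kainate replicate 3. In kainate replicate 1 it was 320 against 3790 CPM. The oligodendrocyte sum in kainate replicate 3 was 481 against 5294 CPM. Among the NeuN+ libraries, both replicate 1 libraries stood apart from the others, with 40255 and 39064 detected genes against 45603 to 46730, and 0.0519% and 0.0610% of counts from mitochondrial genes against at most 0.0194%. The counts of all calls are therefore also given without both replicate 1 libraries, as are those of the dentate, matrix, GABA and potassium channel lists. The comparison was defined with the replicate number as a block in edgeR's quasi-likelihood fit. Deviations from the group means correlated between libraries of the same number (r = 0.72, 0.22 and 0.62 over the genes tested, a description). Some unlike numbers correlated more than the replicate 2 pair: kainate replicate 2 with sham replicate 3 (0.26) and kainate replicate 3 with sham replicate 2 (0.54). Adjusted p-values below are from that fit with the Benjamini-Hochberg correction over 30259 genes, a gene is called higher or lower at an adjusted p below 0.25, and log2 fold changes are kainate over sham ± SE with 3 libraries per group. With the block, the p-values measure how the difference between kainate and sham pools varied across replicate numbers. The full spread between pools enters only the fit without the block.

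A seizure makes neurons fire in synchronous bursts, and calcium entering through glutamate receptors and calcium channels switches on immediate early genes within minutes. Their products, transcription factors of the FOS, EGR and NR4A families, then drive later genes that reach the synapse, such as secreted peptides, neurotrophins and receptor-clustering proteins. CREB, which binds the palindrome called the cyclic AMP response element (CRE), is among the factors that start the first wave. In the rodent hippocampus, dentate granule cells are known for strong induction of neuropeptides after seizures and for losing calbindin.

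The sequences that follow belong to genes that rose, and were chosen because they carry a shared element that can be read directly. Mir132 and Mir212, which are hosted together on chromosome 11 and are known targets of CREB, were named after their values were seen. Capitals mark the seed, bases 2 to 8 counted from the 5′ end, in the mature strands from RefSeq (GRCm38.p6, plus strand).
mmu-miR-132-3p, chr11:75173723-75173744: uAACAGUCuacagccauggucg
mmu-miR-212-3p, chr11:75173443-75173464: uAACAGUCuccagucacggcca
mmu-miR-132-5p, chr11:75173686-75173707: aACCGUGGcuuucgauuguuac
mmu-miR-212-5p, chr11:75173403-75173425: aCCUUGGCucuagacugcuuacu
The 3p strands have the seed AACAGUC in common and are identical at 17 of 22 positions, while the 5p seeds differ. Mir132 was at 8.26, 8.47 and 14.9 CPM in kainate replicates 1 to 3 and 1.97, 2.43 and 1.19 CPM in the sham replicates, a log2 fold change of 2.48 ± 0.33 (edgeR adjusted p = 4.3e-05). Mir212 was at 6.18, 6.51 and 10.4 CPM in the kainate libraries and 1.04, 0.975 and 1.79 CPM in the sham libraries, a log2 fold change of 2.61 ± 0.29 (edgeR adjusted p = 4.8e-06). All kainate libraries lay above all sham libraries for both. These are counts over the hairpin genes in polyadenylated nuclear RNA, so they measure the precursor transcript and not the mature strands printed above.

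Among the genes called higher in the lists of activity genes, neuropeptides, peptide-processing genes and MAP kinase inhibitors, 8 are shown that had the letters TGACGTCA, the full CRE, in the bases upstream of the start within the RefSeq promoter window of 250 bases before to 50 after. They are printed 5′ to 3′ on the gene's strand, 60 bases each (GRCm38.p6), with the CRE in capitals.
Scg2, chr1:79440061-79440120, minus strand: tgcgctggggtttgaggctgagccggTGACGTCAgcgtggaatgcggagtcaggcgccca
Sst, chr16:23890859-23890918, minus strand: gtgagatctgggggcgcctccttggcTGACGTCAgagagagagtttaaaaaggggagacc
Pcsk1, chr13:75089753-75089812, plus strand: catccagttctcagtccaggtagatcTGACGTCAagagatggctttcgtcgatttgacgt
Sstr2, chr11:113619243-113619302, plus strand: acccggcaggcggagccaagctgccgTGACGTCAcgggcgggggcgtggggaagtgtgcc
Plk2, chr13:110394956-110395015, plus strand: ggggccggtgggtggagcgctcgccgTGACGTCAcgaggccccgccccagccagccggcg
Btg2, chr1:134079288-134079347, minus strand: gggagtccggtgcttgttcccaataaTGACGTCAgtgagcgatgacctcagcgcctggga
Dusp1, chr17:26508582-26508641, minus strand: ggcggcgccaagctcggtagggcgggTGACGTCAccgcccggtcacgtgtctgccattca
Errfi1, chr4:150854993-150855052, plus strand: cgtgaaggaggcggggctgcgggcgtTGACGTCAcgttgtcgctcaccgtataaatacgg
The element began 48 bases before the start in Sst and 166 bases before it in Btg2, the nearest and the farthest of the 8. Of the 20872 windows matched to tested genes by symbol, 2.34% held the CRE, against 3.12% of the 1476 windows of higher genes and 0.866% of the 808 windows of lower genes. The AP-1 letters TGANTCA, bound by FOS and JUN dimers, were in 6.52% of all windows, 8.06% of those of higher and 3.84% of those of lower genes. The E-box CACGTG, bound by clock proteins among others, was in 8.34%, 8.13% and 9.78%. All 3 motifs read the same on both strands and none contains another. A match is a description of letters, genes can have more than 1 window, and 16745 of the 30259 genes tested had one. Of the 8 genes, Btg2, Scg2 and Dusp1 are outside the rule for named genes and were chosen for this motif. Scg2, which encodes secretogranin 2, a granule protein, was at 785, 418 and 556 CPM in kainate and 342, 125 and 129 CPM in sham libraries (log2 fold change 1.68 ± 0.18, edgeR adjusted p = 2e-06). Btg2, an antiproliferative immediate early gene, was at 141, 147 and 74.4 CPM and 50.4, 29.6 and 23.4 CPM (log2 fold change 1.82 ± 0.19, edgeR adjusted p = 1.5e-06). Dusp1, an ERK phosphatase, was at 45.1, 46.8 and 47.2 CPM and 34.6, 15.5 and 11.2 CPM (log2 fold change 1.36 ± 0.25, edgeR adjusted p = 0.0014). The groups did not overlap for any of the 3, but the calls of Scg2 and Dusp1 were lost without the replicate block.

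Of the 30259 genes tested, 1607 were higher in kainate (5.31%) and 1027 were lower (3.39%), and the median log2 fold change over all of them was 0.01. At an adjusted p below 0.05 the counts were 823 (2.72%) and 427 (1.41%). Among the called genes, log2 fold changes reached 6.24 upward and -2.92 downward, with medians of 0.87 and -0.79, and 663 genes rose by at least 1 log2 unit against 282 that fell by as much. All kainate libraries lay above all sham libraries for 1650 genes (5.45%) and below them for 1311 (4.33%). Without the replicate block 324 genes were higher (1.07%) and 66 lower (0.218%), all of them also called with it. Of the genes named by rule, 93 of 168 higher and 19 of 102 lower calls were kept without the block. The lower calls kept include Plk5, Lct, Stxbp6, Trpc6, Per3, Smo, Adcy1, Pde7b and Plcg2. The counts also turned on single libraries: they were 565 and 198 without kainate replicate 3, 636 and 226 without sham replicate 3, 2458 and 2337 without kainate replicate 2, and 2436 and 2296 without sham replicate 2. A library left without its partner is taken up by its own block, so each of these fits compares the other pairs. Without both replicate 1 libraries the counts were 1334 and 968. The shares of all genes tested, 5.31% higher and 3.39% lower, are the background against which each list below is to be read. The lists were written with earlier results of these data known, so a share above the background is a description and not a test. In RNA from pooled nuclei, fewer nuclei of a type and less RNA per nucleus cannot be told apart.

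**Figure D1:**
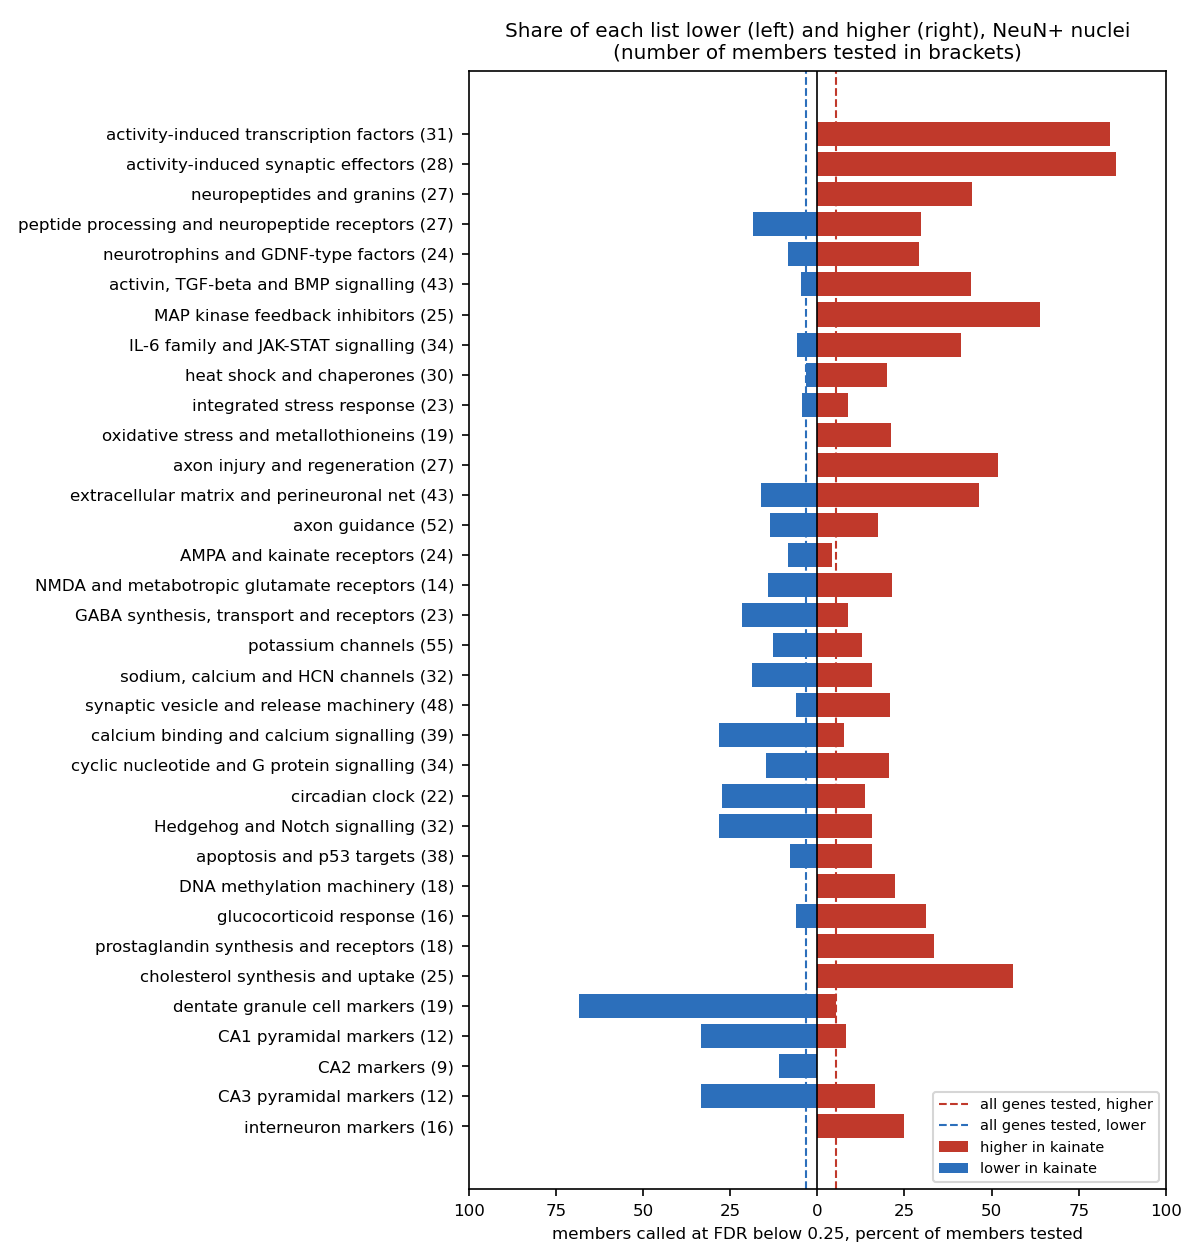
Share of the tested members of 34 gene lists that were lower (bars to the left, blue) or higher (bars to the right, red) in kainate NeuN+ nuclei, in percent, with the number tested in brackets and dashed lines at the shares over all genes tested (3.39% and 5.31%). The lists of activity genes and cholesterol genes extend to the right and the dentate granule cell markers to the left.

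Activity-induced transcription factors were higher as a group 24 h after kainate. Of 31 activity-induced transcription factors tested (32 listed), 26 were higher and none lower, 83.9% against 5.31% of all genes, with a median log2 fold change over the list of 1.56 against 0.01 over all genes. The list median and counts include Fos, Fosb, Egr1, Atf3, Ier5 and Csrnp1, the 6 with the smallest p. Fos, the partner of JUN in the AP-1 factor, was at 112, 127 and 54 CPM in kainate replicates 1 to 3 and 17.8, 9.1 and 7.37 CPM in the sham replicates, a log2 fold change of 3.11 ± 0.22 (edgeR adjusted p = 9.7e-09). Fosb, its longer-lived relative, was at 25.1, 20.2 and 15.8 CPM and 2.18, 2.58 and 1.49 CPM (log2 fold change 3.28 ± 0.26, edgeR adjusted p = 3.8e-08). Egr1, a zinc-finger factor used as a marker of neuronal activity, was at 273, 256 and 120.4 CPM and 78.9, 45.8 and 30.6 CPM (log2 fold change 2.08 ± 0.18, edgeR adjusted p = 1.2e-07). For these genes every kainate library was above every sham library, and kainate replicate 3 was the lowest kainate library for Fos, Fosb and Egr1. Atf3, a stress- and injury-induced factor, was at 14, 13.7 and 7.81 CPM against 0.71, 1.21 and 1.46 CPM (log2 fold change 3.32 ± 0.33, edgeR adjusted p = 9.9e-07). Without the block 17 members were called higher, and leaving out any 1 library left 22 to 25.

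The synaptic products of activity rose too. Of 28 activity-induced synaptic effectors, 24 were higher and none lower (85.7%), with a median log2 fold change of 1.30. Nptx2, a secreted pentraxin that clusters AMPA receptors, was at 448, 186 and 289.5 CPM in kainate and 43.3, 19.7 and 19.2 CPM in sham libraries, a log2 fold change of 3.51 ± 0.19 (edgeR adjusted p = 1.9e-10). Arc, which drives AMPA receptor endocytosis, was at 682, 491 and 549 CPM and 179.8, 94.6 and 106 CPM (log2 fold change 2.22 ± 0.16, edgeR adjusted p = 1.9e-08). Bdnf, a neurotrophin, was at 271, 116 and 119.6 CPM and 82.3, 33.5 and 32.7 CPM (log2 fold change 1.79 ± 0.16, edgeR adjusted p = 3.3e-07). The groups were apart for each of them, and replicate 1 had the highest level within each group. Ptgs2, the inducible cyclooxygenase, was at 461, 139.9 and 120.2 CPM against 47.7, 29.2 and 36.5 CPM (log2 fold change 2.41 ± 0.22, edgeR adjusted p = 4.2e-07), and Gadd45b, linked to DNA repair and demethylation, was at 61.9, 33.6 and 67.9 CPM against 14, 5.48 and 8.18 CPM (log2 fold change 2.61 ± 0.21). Rgs4, which shortens G protein signals, rose by 2.89 and Plk2, a kinase that weakens overactive synapses, by 1.17 on the log2 scale. Without the block 16 were called higher, and 20 to 24 with any 1 library left out.

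Neuropeptides included the gene with the greatest rise of all called genes, Trh. Of 27 neuropeptides and granins tested, 12 were higher and none lower (44.4%), with a median log2 fold change of 0.56. Trh, the precursor of thyrotropin-releasing hormone, was at 138, 72.8 and 207 CPM in kainate and 0.819, 1.63 and 2.69 CPM in sham libraries, a log2 fold change of 6.24 ± 0.28 (edgeR adjusted p = 1.2e-11). Gal, galanin, a peptide that restrains glutamate release, was at 25.1, 17.1 and 20.3 CPM and 0.109, 0.369 and 0.656 CPM (log2 fold change 5.66 ± 0.36, edgeR adjusted p = 2.4e-09). Npy, neuropeptide Y, which also lowers excitability, was at 105, 52.2 and 58.1 CPM and 28, 7.33 and 6.33 CPM (log2 fold change 2.64 ± 0.23, edgeR adjusted p = 1.3e-07). Every kainate library was above every sham library for all 3, and for Trh the lowest kainate library stood far above the highest sham library. Penk, the enkephalin precursor, was at 177, 126 and 136 CPM against 68.4, 24.5 and 21.4 CPM (log2 fold change 2.14 ± 0.21, edgeR adjusted p = 9.2e-07). Vgf and Chga, granule proteins that are themselves cut into peptides, had log2 fold changes of 2.44 ± 0.20 and 2.11 ± 0.20. Sst and Vip, peptides of interneurons, had small changes of 0.56 ± 0.20 and 0.59 ± 0.19 (edgeR adjusted p = 0.16 and 0.1) with overlapping groups, and both calls were lost without either replicate 3 library. Without the block 7 members were called higher, and 10 without either replicate 3 library.

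The enzymes and receptors of peptide signalling moved both ways: 8 of 27 were higher (29.6%) and 5 lower (18.5%). Pcsk1, a convertase that cuts peptide precursors, was at 117, 48.6 and 59.4 CPM in kainate and 51.3, 19.5 and 12.9 CPM in sham libraries, a log2 fold change of 1.57 ± 0.20 (edgeR adjusted p = 2.8e-05). The groups overlapped because sham replicate 1 exceeded kainate replicate 2, while each kainate library was above the sham library of its own number; the call was lost without the block. Gipr, the receptor of the gut hormone GIP, was at 66.9, 32.7 and 165 CPM and 4.75, 5.38 and 6.03 CPM (log2 fold change 3.73 ± 0.29, edgeR adjusted p = 4.7e-08). Sstr2 and Sstr3, somatostatin receptors, rose by 2.34 and 1.58 on the log2 scale, and Tacr1, the substance P receptor, by 1.32. Npy1r and Npy2r, receptors of neuropeptide Y, went the other way. Npy1r was at 34.1, 17.3 and 11.9 CPM against 64.8, 29.3 and 37.4 CPM (log2 fold change -1.11 ± 0.20, edgeR adjusted p = 0.0016), and Npy2r was at 55.6, 32.2 and 15.8 CPM against 124, 43.8 and 52.6 CPM (log2 fold change -1.11 ± 0.21, edgeR adjusted p = 0.0021). Both sets of libraries overlapped, since kainate replicate 1 exceeded some sham libraries, but the fall was seen in every pair. Sstr4 fell by 0.80. Without the block 4 members were called higher and none lower, and these counts were 4 and 2 without kainate replicate 3, 5 and 2 without sham replicate 3 and 5 and 5 without kainate replicate 1, while 8 were lower without either replicate 2 library.

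**Figure D2:**
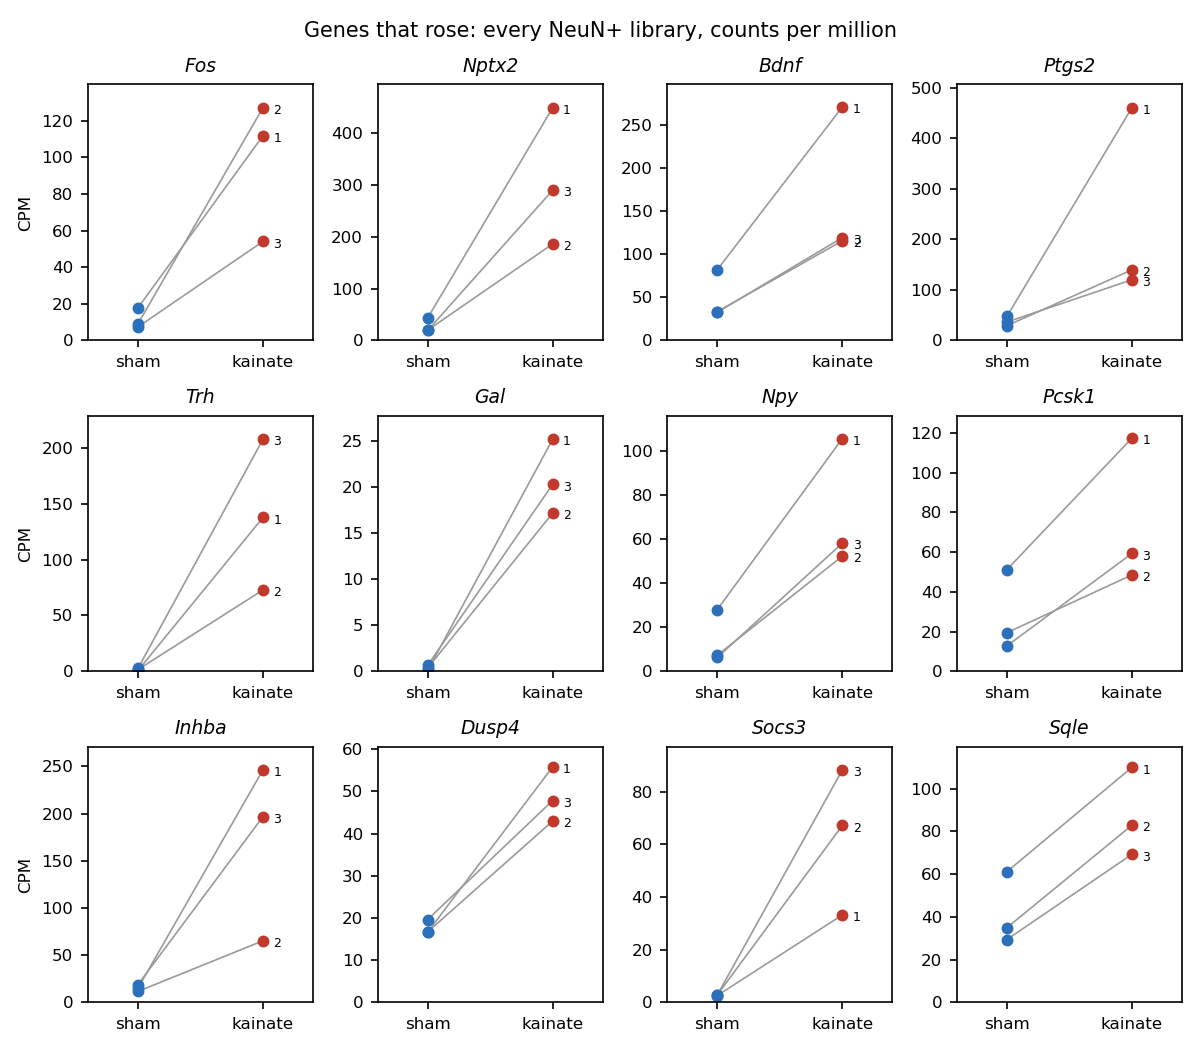
CPM in every NeuN+ library for 12 genes that rose, sham (blue) and kainate (red), with lines joining libraries of the same replicate number, which stands beside the kainate point. Each axis starts at 0. Every line rises, and for Pcsk1 sham replicate 1 lies above kainate replicate 2.

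Neurotrophins moved in both directions, Bdnf up and Ntf3 down. Of 24 neurotrophins and GDNF-type factors and receptors, 7 were higher (29.2%) and 2 lower (8.33%). Vegfa, the endothelial growth factor, was at 267, 138 and 376 CPM in kainate and 89.9, 41 and 54.8 CPM in sham libraries (log2 fold change 2.03 ± 0.20, edgeR adjusted p = 1.1e-06). Gfra1 and Ret, which together form the GDNF receptor, had log2 fold changes of 1.71 ± 0.18 and 1.25 ± 0.24. Ntf3, neurotrophin 3, which marks granule and CA2 cells, was at 7.19, 3.54 and 1.62 CPM against 25, 9.28 and 9.43 CPM, a log2 fold change of -1.87 ± 0.27 (edgeR adjusted p = 8.7e-05). The groups did not overlap for Vegfa or Ntf3. Ntf3 lost its call without the block, where 4 members were higher and none lower, and 1 member was lower without either replicate 3 library.

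Activin and TGF-beta signalling had 19 of 43 members higher (44.2%) and 2 lower (4.65%), with a median log2 fold change of 0.47. Inhba, the activin A subunit, was at 247, 65.3 and 197 CPM in kainate and 15.1, 11.7 and 18.9 CPM in sham libraries, a log2 fold change of 3.29 ± 0.23 (edgeR adjusted p = 9.7e-09). Inhbb, the other activin subunit, was at 5.88, 1.66 and 1.83 CPM and 10.6, 6.72 and 7.25 CPM, a log2 fold change of -1.61 ± 0.29 (edgeR adjusted p = 0.0015). The groups did not overlap for either subunit, and the call of Inhbb was lost without the block. Acvr1c, a receptor for activins and Nodal, was at 145, 165 and 188 CPM against 37.1, 30.2 and 34.5 CPM (log2 fold change 2.29 ± 0.17). Pmepa1, a feedback inhibitor induced by TGF-beta, and Skil, a repressor of SMAD factors, rose by 2.64 and 1.35, Tll1, a protease that frees BMPs, by 3.62, and Bmp3 by 2.06 on the log2 scale, whereas Tgfbr3, a co-receptor, had -0.89 ± 0.19. Without the block 9 were called higher and none lower, and 11 were higher without either replicate 3 library.

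Inhibitors of the MAP kinase cascade rose with no member called lower: 16 of 25 tested (64.0%), median log2 fold change 0.83. Dusp4, a nuclear phosphatase of ERK, was at 55.8, 43 and 47.8 CPM in kainate and 16.7, 16.7 and 19.6 CPM in sham libraries (log2 fold change 1.46 ± 0.19, edgeR adjusted p = 3.2e-05). Dusp5, another ERK phosphatase, was at 85.3, 71.8 and 41.5 CPM and 27.1, 13 and 18.9 CPM (log2 fold change 1.75 ± 0.22, edgeR adjusted p = 2e-05). Rasa4, which switches off RAS after calcium signals, was at 73.8, 52.2 and 81.9 CPM and 21.4, 14.7 and 18.1 CPM (log2 fold change 1.93 ± 0.18, edgeR adjusted p = 5.7e-07). All kainate libraries exceeded all sham libraries for these genes. Spred1, which keeps RAF from activation, and the pseudokinases Trib1 and Trib2 rose by 1.48, 1.93 and 1.84, and Errfi1, an inhibitor of the EGF receptor whose promoter stretch is printed above, by 0.88. Without the block 7 were called higher, and 13 without either replicate 3 library.

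In the IL-6 and JAK-STAT list 14 of 34 tested members were higher (41.2%) and 2 lower (5.88%). Socs3, the feedback inhibitor that STAT3 induces, was at 33.2, 67.2 and 88.3 CPM in kainate and 2.62, 2.87 and 2.83 CPM in sham libraries, a log2 fold change of 4.43 ± 0.25 (edgeR adjusted p = 3.3e-10). Stat3 itself was at 124, 140.1 and 132 CPM and 34, 84.8 and 34 CPM (log2 fold change 1.52 ± 0.21, edgeR adjusted p = 6.5e-05). Sbno2, induced by IL-6 type cytokines, rose by 2.01, and the ligand Clcf1 by 2.67. The groups were apart for each of these 4 genes. Tyk2, a JAK kinase, had -0.59 ± 0.16. Lif, another ligand, was at 0.475, 4.26 and 19.4 CPM and 0.109, 2.08 and 2.95 CPM, with overlapping groups and a call that was lost without either replicate 3 library. Without the block 3 were called higher and none lower, and 5 were higher without kainate replicate 3 and 7 without sham replicate 3, with 1 lower in both.

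Prostaglandin genes had 6 of 18 tested members higher (33.3%) and none lower. Beside Ptgs2, Ptgs1, the constitutive cyclooxygenase, was at 25.3, 19.4 and 45.4 CPM in kainate and 7.21, 6.27 and 7.37 CPM in sham libraries (log2 fold change 2.02 ± 0.23, edgeR adjusted p = 6.7e-06). Hpgd, which degrades prostaglandins, was at 4.75, 5.9 and 4.28 CPM and 1.37, 1.13 and 1.52 CPM (log2 fold change 1.89 ± 0.32, edgeR adjusted p = 0.00056). Ptger4, a receptor of prostaglandin E, was at 11.9, 16.5 and 17.6 CPM and 6.5, 7.01 and 5.55 CPM (log2 fold change 1.26 ± 0.24, edgeR adjusted p = 0.0021). Synthesis, breakdown and a receptor thus rose together, with no overlap between groups for these genes. Without the block 4 members were called higher, and 4 without either replicate 3 library.

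Genes of cholesterol synthesis and uptake that rose did so by smaller amounts. Of 25 tested, 14 were higher (56.0%), none lower and 11 not called, and all 25 had a log2 fold change above 0, with a median of 0.50. Hmgcs1, an early enzyme of the pathway, was at 77.8, 76.2 and 60.6 CPM in kainate and 40.8, 31.1 and 25.4 CPM in sham libraries (log2 fold change 1.16 ± 0.18, edgeR adjusted p = 0.00018). Sqle, the squalene epoxidase, was at 109.95, 82.9 and 69.3 CPM and 61.2, 35 and 29.4 CPM (log2 fold change 1.11 ± 0.17, edgeR adjusted p = 0.00025). The groups were apart for both. Msmo1 and Cyp51, later enzymes that remove methyl groups, had 1.31 ± 0.17 and 0.96 ± 0.17 with overlapping groups, and Insig1, which holds back the pathway's master factor, had 0.99 ± 0.18. Without the block 3 members were called, and 9 without kainate replicate 3.

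Genes of axon injury and regeneration had 14 of 27 members higher (51.9%) and none lower, median log2 fold change 0.59. Ecel1, a membrane endopeptidase of injured neurons, was at 29.1, 29.9 and 35.2 CPM in kainate and 7.54, 9.15 and 8.21 CPM in sham libraries (log2 fold change 1.92 ± 0.21, edgeR adjusted p = 3.3e-06). Sox11, a factor of immature and regrowing neurons, was at 159, 126 and 97.7 CPM and 64.8, 29.3 and 38.8 CPM (log2 fold change 1.57 ± 0.19, edgeR adjusted p = 8.7e-06). S100a10 and Anxa2, which form a complex at the membrane, rose by 2.14 and 2.25 on the log2 scale. Without the block 8 members were called, and 10 without either replicate 3 library.

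In the list of extracellular matrix and perineuronal net genes 20 of 43 members were higher (46.5%) and 7 lower (16.3%). Col27a1, a fibrillar collagen, was at 111, 248 and 182 CPM against 4.81, 17.6 and 17.2 CPM, a log2 fold change of 3.88 ± 0.21 (edgeR adjusted p = 2.4e-10), and Sdc1, a heparan sulfate proteoglycan, was at 37.9, 41.5 and 37.5 CPM against 0.546, 2.03 and 2.36 CPM (log2 fold change 4.60 ± 0.30, edgeR adjusted p = 3.4e-09). Every kainate library was well above every sham library for both. Tnc, tenascin C, rose by 2.17, while Ogn, a small leucine-rich proteoglycan, was at 1.78, 1.46 and 1.7 CPM against 13.3, 5.69 and 7.31 CPM (log2 fold change -2.30 ± 0.29). Tnr and Bcan, components of perineuronal nets, had -0.57 ± 0.17 and -0.58 ± 0.19, and both lost their calls without either replicate 3 library. The matrix genes called lower were 3 without any 1 of the replicate 1 or replicate 3 libraries, 3 without both replicate 1 libraries and 1 without the block, which left 11 higher. Axon guidance genes were split, 9 of 52 higher (17.3%) and 7 lower (13.5%), median 0.00, with Sema3e, a repulsive ligand, at 1.57 ± 0.18 and Cxcl12, a chemokine that guides granule cell precursors, at -1.70 ± 0.21. Without the block 2 axon guidance genes were higher and 1 lower, without kainate replicate 3 there were 3 and 2, and without either replicate 2 library 9 and 14. Leaving out either replicate 1 library left 3 lower.

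The markers of dentate granule cells fell. Of 19 tested, 13 were lower (68.4% against 3.39% of all genes) and 1 was higher, with a median log2 fold change of -0.75 against 0.01 over all genes. Plk5, a polo-like kinase, was at 19.1, 11.8 and 4.23 CPM in kainate replicates 1 to 3 and 85.8, 73.3 and 73.3 CPM in the sham replicates, a log2 fold change of -2.92 ± 0.27 (edgeR adjusted p = 3.7e-07). Lct, which encodes lactase, was at 7.43, 10.2 and 10.04 CPM and 31, 33.7 and 44.9 CPM (log2 fold change -1.98 ± 0.21, edgeR adjusted p = 1.8e-06). Tdo2, a tryptophan-degrading enzyme, was at 7.43, 1.9 and 2.36 CPM and 17, 15.2 and 10.3 CPM (log2 fold change -2.10 ± 0.30, edgeR adjusted p = 0.0001). Every kainate library was below every sham library for these 3, and Plk5 was lowest in kainate replicate 3. Stxbp6, a regulator of SNARE complexes, was at 32, 26.8 and 15.5 CPM against 73.5, 66.7 and 83.3 CPM (log2 fold change -1.64 ± 0.22, edgeR adjusted p = 3.9e-05), and Trpc6, a cation channel, was at 52.1, 44.4 and 56.7 CPM against 136, 90.1 and 171 CPM (log2 fold change -1.33 ± 0.17). Calb1, calbindin, was at 93.6, 53.6 and 21.8 CPM against 161, 95.6 and 81.5 CPM, a log2 fold change of -1.16 ± 0.20 (edgeR adjusted p = 0.00078), with kainate replicate 1 inside the sham range. The fall did not extend to all markers. Prox1, the homeobox factor that sets granule cell identity, was at 123, 143 and 140.1 CPM against 133, 137 and 142 CPM (log2 fold change -0.02 ± 0.16, edgeR adjusted p = 0.99); it was named after its value was seen. The summed CPM of the 19 markers, in the scaling over all 11 libraries, was 1140 to 1529 in kainate and 1732 to 2359 in sham libraries, against 896 to 2270 in the 5 NeuN- libraries, a range that overlaps both. Without the block 5 were called lower, 7 without kainate replicate 3, 8 without sham replicate 3 and 12 without both replicate 1 libraries.

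Some markers of the other hippocampal fields were also called, from shorter lists. Of 12 CA1 markers 4 were lower (33.3% against 3.39% of all genes) and 1 higher (8.33%), with a median of 0.11. Of 9 CA2 markers 1 was lower (11.1%, median -0.30). Of 12 CA3 markers 4 were lower (33.3%) and 2 higher (16.7%), with a median of -0.02. The difference between the lists was not tested. In CA1, Dcn, decorin, was at 47.8, 11.2 and 7.2 CPM against 90.5, 27.6 and 23.8 CPM (log2 fold change -1.30 ± 0.20), and Fibcd1, a marker of dorsal CA1, was at 151, 88 and 44.9 CPM against 194, 117 and 110.3 CPM (log2 fold change -0.69 ± 0.19), both with overlapping groups. The CA2 marker that fell was Ntf3. In CA3, Lypd1, a modulator of acetylcholine receptors, had -1.08 ± 0.21 and Grik4, a kainate receptor subunit, had 0.59 ± 0.17. Without either replicate 3 library 1 CA1 and 1 CA3 marker were lower, none of the CA3 markers was higher there, and without the block none was called in either field. Of 16 interneuron markers 4 were higher, and all 4, Gad1, Gad2, Sst and Vip, lost their calls without the block and without either replicate 3 library.

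**Figure D3:**
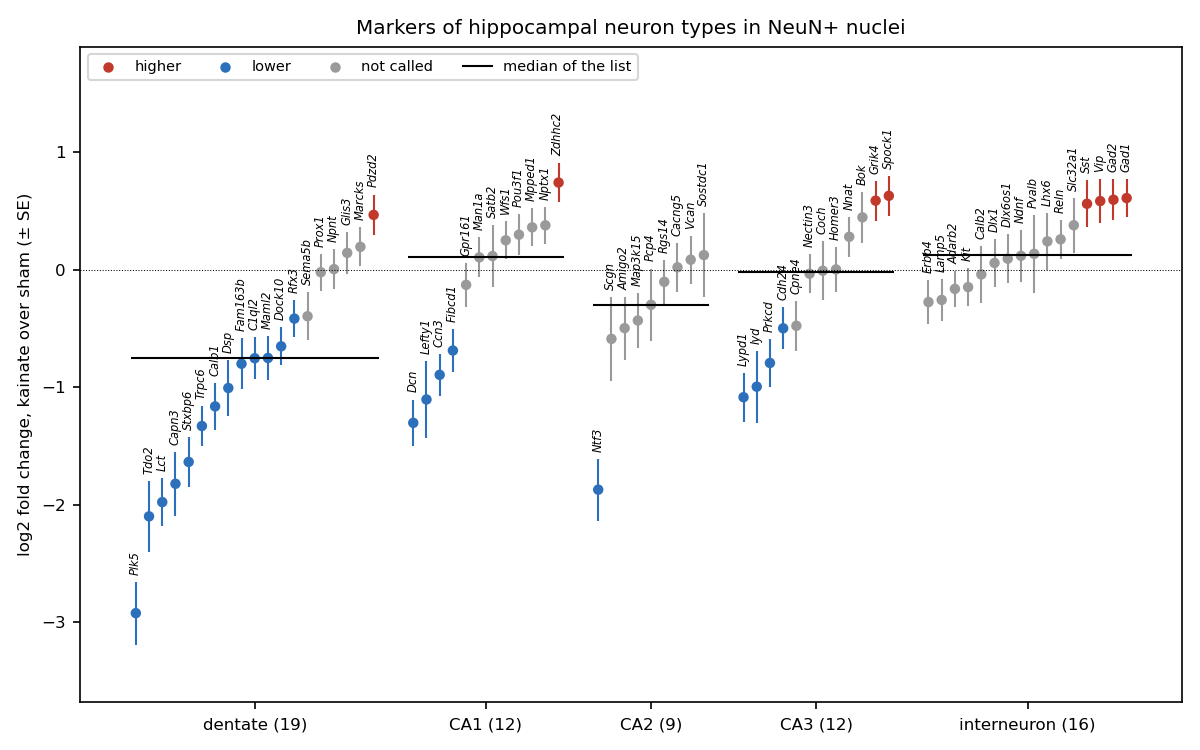
Log2 fold change of kainate over sham ± SE for each tested marker of dentate granule cells, CA1, CA2, CA3 and interneurons in NeuN+ nuclei, with the number of markers in brackets, calls in red (higher), blue (lower) and grey (not called), and a black line at each list's median. The dentate list runs from -2.92 for Plk5 to 0.47 for Pdzd2 and its median is -0.75.

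Calcium binding and signalling genes had 11 of 39 members lower (28.2%) and 3 higher (7.69%), median log2 fold change -0.17. Beside Calb1, Camk2a, the alpha subunit of the kinase that stores synaptic activity, was at 425, 360.4 and 267 CPM in kainate and 592, 614 and 588 CPM in sham libraries, a log2 fold change of -0.80 ± 0.16 (edgeR adjusted p = 0.0039). Camkk2, a kinase upstream of CaM kinases I and IV, was at 116, 88.5 and 77.1 CPM and 167, 158 and 139.98 CPM (log2 fold change -0.74 ± 0.16, edgeR adjusted p = 0.0072). Plcg2, a phospholipase, was at 2.91, 3.76 and 3.8 CPM and 8.52, 9.6 and 12.6 CPM (log2 fold change -1.54 ± 0.26, edgeR adjusted p = 0.00053). All kainate libraries were below all sham libraries for Camk2a, Camkk2 and Plcg2. Itpr1, the calcium release channel, and Itpka, which removes its ligand, had -0.60 ± 0.16 and -0.72 ± 0.18. Without the block 1 member was called lower, 3 without kainate replicate 3, 4 without sham replicate 3, 7 without kainate replicate 1 and 15 without either replicate 2 library. The higher members were none without the block or either replicate 3 library, 6 without kainate replicate 2 and 5 without sham replicate 2.

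Receptors for glutamate and GABA changed in few members. Among 24 AMPA and kainate receptor genes 2 were lower and 1 higher. Gria1, an AMPA receptor subunit, was at 1067, 1113 and 939 CPM in kainate and 1526, 1606 and 1612 CPM in sham libraries, a log2 fold change of -0.61 ± 0.15 (edgeR adjusted p = 0.017). Kainate libraries lay below sham libraries without overlap, and the call was lost without the block or either replicate 3 library. Of 14 NMDA and metabotropic receptor genes 3 were higher and 2 lower. Grm8, a presynaptic receptor that limits release, had 1.03 ± 0.22, and Grm5, a postsynaptic receptor, had -0.64 ± 0.16. Without the block, and without either replicate 3 library, no gene of the AMPA, kainate, NMDA and metabotropic receptor lists was called in either direction. In the GABA list 5 of 23 were lower (21.7%) and 2 higher (8.70%). Gabrd, the delta subunit of tonic GABA-A receptors of granule cells, was at 43.8, 18 and 9.04 CPM against 93.4, 45.1 and 53.5 CPM, a log2 fold change of -1.64 ± 0.23 (edgeR adjusted p = 8.4e-05). The groups were apart, with kainate replicate 3 the lowest. Gabra4, the alpha subunit that pairs with it, had -0.65 ± 0.16 with overlapping groups. Gad1, which makes GABA, was at 237, 184 and 159.7 CPM against 187, 117 and 89.5 CPM (log2 fold change 0.61 ± 0.16, edgeR adjusted p = 0.031). Without the block no GABA gene was called in either direction, and leaving out kainate or sham replicate 3 left 1 lower and none higher. Without either replicate 2 library 7 AMPA and kainate receptor genes, 6 NMDA and metabotropic receptor genes and 7 GABA genes were lower, while 1 AMPA or kainate receptor gene and 2 GABA genes were lower without either replicate 1 library and 3 without both.

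Ion channels and the release machinery were divided. Of 55 potassium channel genes 7 were higher and 7 lower (12.7% each). Kcnip3, a calcium sensor that binds A-type channels and also represses transcription, was at 129.6, 174 and 184 CPM in kainate and 59.5, 51.5 and 42.3 CPM in sham libraries (log2 fold change 1.67 ± 0.19, edgeR adjusted p = 5e-06). Kcnip2, its relative, was at 155, 82.6 and 53.6 CPM and 236, 147 and 181 CPM, a log2 fold change of -1.06 ± 0.19 (edgeR adjusted p = 0.0014). Kcnip3 had groups apart, while Kcnip2 had kainate replicate 1 inside the sham range and lost its call without the block. Of 32 sodium, calcium and HCN channel genes 5 were higher (15.6%) and 6 lower (18.8%). Cacna1g, a T-type calcium channel, was at 110.2, 129.98 and 105 CPM against 59.6, 52.1 and 56.9 CPM (log2 fold change 1.03 ± 0.17, edgeR adjusted p = 0.00044), and Scn3b, a sodium channel beta subunit, was at 308, 179 and 108 CPM against 489, 329 and 358 CPM (log2 fold change -1.09 ± 0.19, edgeR adjusted p = 0.00069). Of 48 vesicle and release genes 10 were higher (20.8%) and 3 lower (6.25%). Sv2c, a vesicle protein, was at 78.5, 143 and 124 CPM against 24.1, 20.7 and 25.2 CPM, a log2 fold change of 2.27 ± 0.20 (edgeR adjusted p = 2.4e-07), with no overlap. Doc2a, a calcium sensor of spontaneous release, had 1.19 ± 0.21. Without the block the potassium channels had 1 gene called higher and none lower, the sodium, calcium and HCN channels 1 and 1, and the vesicle genes 2 and 1. Without kainate replicate 3 these counts were 2 and 1, 2 and 3, and 4 and 1, and without sham replicate 3 they were 2 and 1, 2 and 3, and 5 and 1. Without kainate replicate 2 they were 12 and 15, 6 and 11, and 11 and 8, and without sham replicate 2 they were 12 and 15, 5 and 11, and 11 and 8. The potassium channel counts were 2 and 4 without kainate replicate 1, 5 and 4 without sham replicate 1, and 3 and 4 without both.

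Cyclic nucleotide and G protein genes had 7 of 34 members higher (20.6%) and 5 lower (14.7%). The members with the smallest p on the lower side were Adcy1, the calcium-stimulated adenylyl cyclase, at 286, 243 and 165 CPM in kainate and 487, 508 and 443 CPM in sham libraries (log2 fold change -1.09 ± 0.16, edgeR adjusted p = 0.00018), and Pde7b, a cyclic AMP phosphodiesterase, at 6.18, 6.9 and 5.81 CPM and 18.3, 14.9 and 20.8 CPM (log2 fold change -1.50 ± 0.24, edgeR adjusted p = 0.00029). The groups were apart for both. Of the 7 that rose, 6 were regulators of G protein signalling, among them Rgs4, Rgs2 (1.69 ± 0.22), Rgs9 (0.88 ± 0.18) and Rgs8 (0.81 ± 0.18). Without the block the counts were 2 higher and 2 lower, and without either replicate 3 library 3 and 2, while 8 were lower without either replicate 2 library.

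Circadian clock genes moved both ways, with the PAR bZIP activators lower. Of 22 clock genes 6 were lower (27.3%) and 3 higher (13.6%), with a median log2 fold change of -0.09. Per3, a period gene, was at 115, 95.4 and 60.7 CPM in kainate and 277, 217 and 297 CPM in sham libraries, a log2 fold change of -1.58 ± 0.20 (edgeR adjusted p = 1.9e-05). Hlf, a PAR bZIP activator, was at 27.6, 22.1 and 9.08 CPM and 58.9, 43.7 and 29.4 CPM (log2 fold change -1.25 ± 0.20, edgeR adjusted p = 0.00033). Dbp and Tef, the other PAR bZIP factors, had -1.15 ± 0.20 and -0.65 ± 0.16 (edgeR adjusted p = 0.00078 and 0.018). All kainate libraries were below all sham libraries for Per3 and Hlf, and the groups overlapped for Dbp and Tef. Nfil3, the repressor that competes with PAR bZIP factors for their sites, was at 38.3, 37.8 and 15.6 CPM against 11, 9.89 and 8.98 CPM, a log2 fold change of 1.52 ± 0.23 (edgeR adjusted p = 0.00023), with the groups apart. Nr1d1 and Ciart, repressors of the core loop, had -0.54 ± 0.18 and -0.69 ± 0.19. Without the block 1 gene was called lower and 1 higher, and without either replicate 3 library 3 and 2.

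Hedgehog and Notch genes had 9 of 32 members lower (28.1%) and 5 higher (15.6%), median -0.14. Smo, the Hedgehog signal transducer, was at 2.2, 2.29 and 3.58 CPM in kainate and 6.55, 10.2 and 11.6 CPM in sham libraries, a log2 fold change of -1.82 ± 0.27 (edgeR adjusted p = 0.00015). Cdon and Gas1, Hedgehog co-receptors, had -0.81 ± 0.20 and -0.96 ± 0.26. Jag1, a Notch ligand, was at 6.18, 5.39 and 9.26 CPM against 15.6, 11.1 and 18.1 CPM (log2 fold change -1.11 ± 0.23, edgeR adjusted p = 0.0048). Notch1, its receptor, was at 34.4, 76.8 and 73.3 CPM against 7.54, 20.7 and 26.8 CPM, a log2 fold change of 1.83 ± 0.20 (edgeR adjusted p = 2.4e-06), and Rbpj, the DNA-binding partner of Notch, had 1.14 ± 0.21. The groups were apart for Smo, Jag1, Notch1 and Rbpj, and Jag1 and Notch1 lost their calls without the block. Without the block 1 gene was called lower and 1 higher, and there were 2 and 2 without kainate replicate 3 and 3 and 2 without sham replicate 3.

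**Figure D4:**
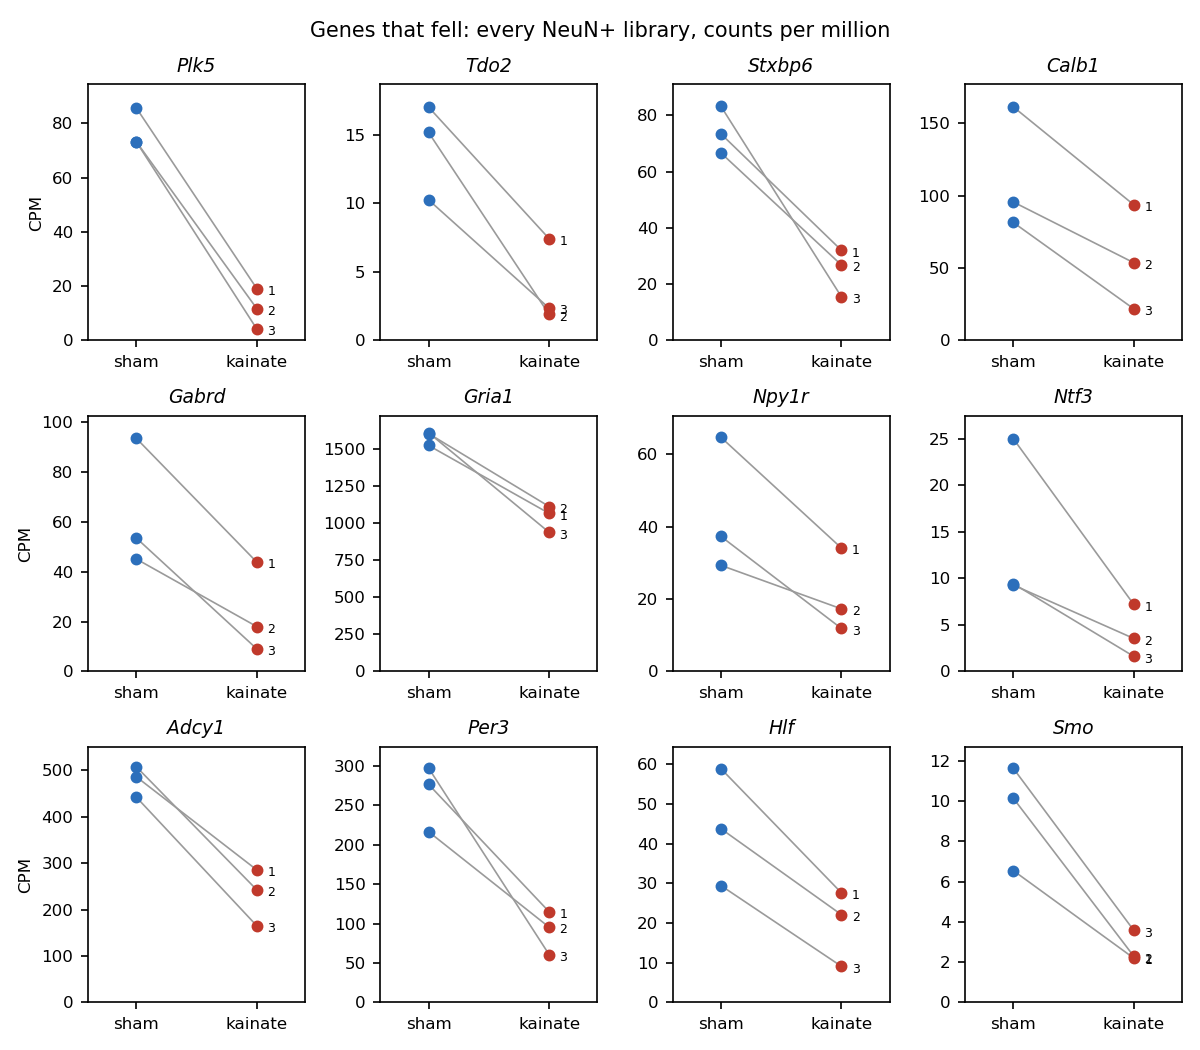
CPM in every NeuN+ library for 12 genes that fell, sham (blue) and kainate (red), with lines joining libraries of the same replicate number, which stands beside the kainate point. Each axis starts at 0. Every line falls, while kainate replicate 1 lies inside the sham range for Calb1 and Npy1r.

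Stress and death programmes changed in few of their members. Of 30 heat shock genes 6 were higher (20.0%) and 1 lower. The smallest p was that of Bag3, a co-chaperone, at 15.5, 8.93 and 11.8 CPM against 2.84, 3.53 and 3.31 CPM (log2 fold change 1.85 ± 0.27, edgeR adjusted p = 0.00013). The higher heat shock genes were 1 without the block, 3 without either replicate 3 library and 10 without either replicate 2 library. Of 23 genes of the integrated stress response 2 were higher (8.70%) and 1 lower, near the background of 5.31%, and 8 were higher without either replicate 2 library and none without the block or either replicate 3 library. Atf4, its central factor, had 0.71 ± 0.18 with overlapping groups. Among 19 oxidative stress genes and metallothioneins 4 were higher (21.1%): Srxn1, which restores peroxiredoxins, was at 122, 107 and 133 CPM against 42.1, 21.9 and 26.1 CPM (log2 fold change 2.06 ± 0.19), and Mt1, a metal-binding protein, at 54.3, 50.1 and 78.1 CPM against 18.2, 9.89 and 8.83 CPM (log2 fold change 2.35 ± 0.24). Of 38 apoptosis genes and p53 targets 6 were higher (15.8%) and 3 lower (7.89%). Those that rose were Gadd45b, Gadd45g, Cdkn1a, Tnfrsf12a, Plk2 and Mcl1. Mcl1, which protects against death, was at 231, 185 and 202 CPM against 90.00, 64.7 and 73.5 CPM (log2 fold change 1.44 ± 0.16, edgeR adjusted p = 3.9e-06), and Bbc3, which encodes the killer protein PUMA, was at 9.15, 6.14 and 5.2 CPM against 17.9, 10.8 and 8.98 CPM (log2 fold change -0.85 ± 0.23, edgeR adjusted p = 0.037). The lower members were 1 without the block or either replicate 3 library and 5 without either replicate 2 library. Mcl1 had groups apart, and Bbc3 had overlapping groups and lost its call without either replicate 3 library. Of 18 genes of DNA methylation 4 were higher (22.2%) and none lower: Gadd45b, Gadd45g, Tet3, which oxidises methylcytosine, at 266, 296 and 353 CPM against 128, 183 and 182 CPM (log2 fold change 0.90 ± 0.16, edgeR adjusted p = 0.00091), and Mbd2, a reader of methylated DNA, with 0.86 ± 0.18. Without the block 2 of the methylation genes were higher, and 7 without either replicate 2 library. Of 16 glucocorticoid-responsive genes 5 were higher (31.3%), among them Angptl4, a lipase inhibitor, at 2.44 ± 0.29, and Nr3c1, the glucocorticoid receptor, had -0.46 ± 0.17 (edgeR adjusted p = 0.17). Nr3c1, the 1 lower member, lost its call without the block, in the fit over 11 libraries, without any 1 of the replicate 1 and 3 libraries and without both replicate 1 libraries, while 4 members were lower without either replicate 2 library.

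Markers of glia in the NeuN+ libraries moved with treatment in part. Of 16 reactive glia genes 11 were higher (68.8%) and none lower, and their summed level was 322 to 395 CPM in kainate and 72.3 to 125 CPM in sham libraries, against 180 to 2954 CPM in the 5 NeuN- libraries. Without the block 7 of these genes were higher. Serpina3n, a protease inhibitor, was at 171, 212 and 117 CPM against 57, 21.9 and 36.2 CPM (log2 fold change 2.17 ± 0.25, edgeR adjusted p = 5.3e-06), and Gfap, the astrocyte filament, was at 33.3, 61.3 and 122 CPM against 19.6, 16.6 and 19.7 CPM (log2 fold change 1.78 ± 0.25, edgeR adjusted p = 8.9e-05). Of 10 astrocyte markers 5 were higher and 2 lower, with sums of 320 to 477 CPM in kainate and 216 to 291 CPM in sham, against 698 to 4941 CPM in NeuN- libraries. Sox9, an astrocyte factor, and Aqp4, the water channel, had 1.71 ± 0.23 and 1.39 ± 0.27, while Slc1a3 and Gja1, a glutamate transporter and a gap junction protein of the same cells, had -0.65 ± 0.20 and -0.63 ± 0.23. The astrocyte counts were 2 higher without the block or kainate replicate 3 and 3 without sham replicate 3, with none lower there or without either replicate 1 library. Of 10 microglia markers 2 were higher (sums of 79.8 to 92.1 CPM against 53.9 to 80.6 CPM), of 10 endothelial markers 1 was higher (22.6 to 43.0 CPM against 22.8 to 41.2 CPM), of 10 oligodendrocyte markers none was called (228 to 481 CPM against 285 to 506 CPM), of 10 precursor markers 1, Gpr17, was lower (38.1 to 116 CPM against 48.9 to 112 CPM), and of 9 tested pericyte markers none was called. Without the block none of these microglia, endothelial and precursor calls was made, and without either replicate 3 library 1 microglia and no endothelial marker was called. Of the 1607 genes called higher, 503 had a higher mean CPM in kainate NeuN- than in kainate NeuN+ libraries. Among them, in the scaling over all 11 libraries, were Fos (232 against 113 CPM) and Gadd45b (257 against 61 CPM). Of the 1027 genes called lower, 226 had a higher mean CPM in sham NeuN- than in sham NeuN+ libraries. The part of glial RNA in these changes, and in the rise of Socs3, Stat3, Vim, Timp1, Anxa2, S100a10 and the metallothioneins, was not tested. Rbfox3 had a log2 fold change of -0.06 ± 0.16. Among abundant nuclear RNAs, Neat1 and Malat1 had 1.55 ± 0.22 and 0.59 ± 0.15 and Miat -0.78 ± 0.17, all 3 calls being lost without the block and the last 2 also without either replicate 3 library. None of the 14 mitochondrial RNAs tested was called, but 7 were higher without sham replicate 1, 3 without kainate replicate 1 and 3 without both.

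Genes in none of the lists also moved. The 12 with the smallest p that rose were Cd1d1, Parp3, Pear1, Cdk18, Megf11, Dgat2l6, Crispld2, Olfm4, Prss23, Pros1, Prex1 and Serinc2, with log2 fold changes from 2.03 to 4.10. Cd1d1, a lipid antigen-presenting molecule, was at 42.9, 71.7 and 78.5 CPM in kainate and 3.82, 3.19 and 4.12 CPM in sham libraries (log2 fold change 4.10 ± 0.23, edgeR adjusted p = 3.3e-10), and reads could be shared with its near copy Cd1d2. Cdk18, a cyclin-dependent kinase, was at 158, 244 and 208 CPM and 42.1, 30.7 and 38.2 CPM (log2 fold change 2.45 ± 0.20, edgeR adjusted p = 5.5e-08). Prex1, an activator of the GTPase RAC, was at 128, 229.98 and 259 CPM and 44.9, 46.8 and 53.4 CPM (log2 fold change 2.03 ± 0.18, edgeR adjusted p = 3.1e-07). For all 12 the kainate libraries were above the sham libraries. The 12 that fell were Slc26a10, Cys1, Frzb, Vwa3a, Cd34, Abcc8, Gpr12, Pcdh20, Echdc2, Igsf1, Otof and Trpm3, with log2 fold changes from -2.09 to -1.25. Abcc8, the sulfonylurea receptor of ATP-sensitive potassium channels, was at 108, 76.2 and 53.5 CPM and 205, 196 and 218 CPM (log2 fold change -1.44 ± 0.19, edgeR adjusted p = 3.9e-05). Frzb, a secreted Wnt antagonist, was at 14.7, 4.61 and 4.63 CPM and 38.1, 18.9 and 18.4 CPM (log2 fold change -1.79 ± 0.22, edgeR adjusted p = 2e-05). Gpr12, a receptor that raises cyclic AMP, was at 30.7, 14.4 and 8.16 CPM and 71.3, 38 and 39.1 CPM (log2 fold change -1.61 ± 0.21, edgeR adjusted p = 3.9e-05). Among the 12 the groups overlapped for Pcdh20, and Frzb, Cd34, Gpr12, Pcdh20 and Echdc2 lost their calls without the block.

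Some neuronal genes share exon positions with a gene on the other strand, and whether the counting used strand is not given in the sources used here. Of the genes given here with a value, this applies to Acvr1c, Anxa2, Bdnf, Cacna2d2, Cd34, Cdk18, Cdkn1a, Cebpb, Cemip2, Csf1r, Csrnp1, Cyp51, Dbp, Doc2a, Dusp1, Dusp5, Gabra4, Gas1, Gfra1, Gpr17, Hmgcs1, Itpr1, Kcnk1, Lypd1, Malat1, Miat, Notch1, Nr1d1, Parp3, Penk, Plxnb1, Prox1, Prss23, Ptger4, Ptgs1, Rasa4, Rgs8, Slc1a2, Slc26a10, Stat3, Tef, Tnc, Tnr, Trpm3, Tyk2 and Vwa3a, so their counts may hold reads of the partner. Clcf1, Grik4, Grm8, Malat1, Miat, Neat1, Olfm4, Pear1, Rasa4, Sema4a and Tgfbr3 overlap a gene on their own strand.

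To ask which changes were larger or smaller in neurons than in the NeuN- nuclei of the same hippocampi, kainate effects were compared in 1 fit over all 11 libraries, blocked on the replicate number separately for NeuN+ and NeuN-. Both fractions of a treatment and replicate number came from the same pool of hippocampi, which that block does not take into account. The NeuN- side has 3 kainate and 2 sham libraries. Sham NeuN- replicate 1 and kainate NeuN- replicate 2 were made from less RNA and with more PCR cycles than the others. In the NeuN- replicate 1 pair, treatment and RNA input therefore cannot be told apart. A sham NeuN- replicate 2 was not analysed here, so the value of kainate NeuN- replicate 2 is taken up by its own block. Of 40714 genes tested, the effect differed for 788 (1.94%). With a block on the pool in its place, an alternative chosen after seeing the data, 9 genes were called at 0.25, all among the 788, and 1086 (2.67%) had an unadjusted p below 0.05, a smaller share than the 5% that no difference would give. All 788 kept their direction. Among the genes described next, Col27a1 and Gipr were called with both blocks, and Trh, Pcsk1, Vegfa, Fos, Egr1, Gadd45b and Plk5 with the first only. With the replicate block, among the 1607 genes higher in neurons, 238 had a greater effect in neurons and 38 a greater one in NeuN- nuclei, and 454 were also called higher in NeuN- nuclei, where 2.93% of all genes tested were higher and 2.86% lower. Trh, whose rise in neurons was given above, had 3.99 ± 0.40 in NeuN- nuclei, a difference of 2.27 ± 0.52 on the log2 scale (edgeR adjusted p = 0.013). Col27a1 had -0.43 ± 0.24 in NeuN- nuclei, a difference of 4.32 ± 0.32 (edgeR adjusted p = 1e-13), and Gipr had -0.35 ± 0.33, a difference of 4.08 ± 0.43 (edgeR adjusted p = 8.1e-09). For Pcsk1 and Vegfa the differences were 1.44 ± 0.36 and 1.16 ± 0.30. The immediate early genes Fos and Egr1 went the other way, with 5.51 ± 0.33 and 4.22 ± 0.26 in NeuN- nuclei and differences of -2.41 ± 0.37 and -2.14 ± 0.30 (edgeR adjusted p = 5.2e-05 and 7.5e-06), and Gadd45b had 5.35 ± 0.29 and a difference of -2.74 ± 0.33. For the dentate markers the difference was called for 6 of 19 at an adjusted p below 0.25, and for Plk5 it was -1.44 ± 0.44 (edgeR adjusted p = 0.14). The count rested on the block, since 1 gene was called without it, and on single libraries: it was 357 without kainate NeuN- replicate 1, 283 without sham NeuN- replicate 1, 2388 without kainate NeuN- replicate 3, 2783 without sham NeuN- replicate 3, 1195 without kainate neuron replicate 2 and 1192 without sham neuron replicate 2.

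**Figure D5:**
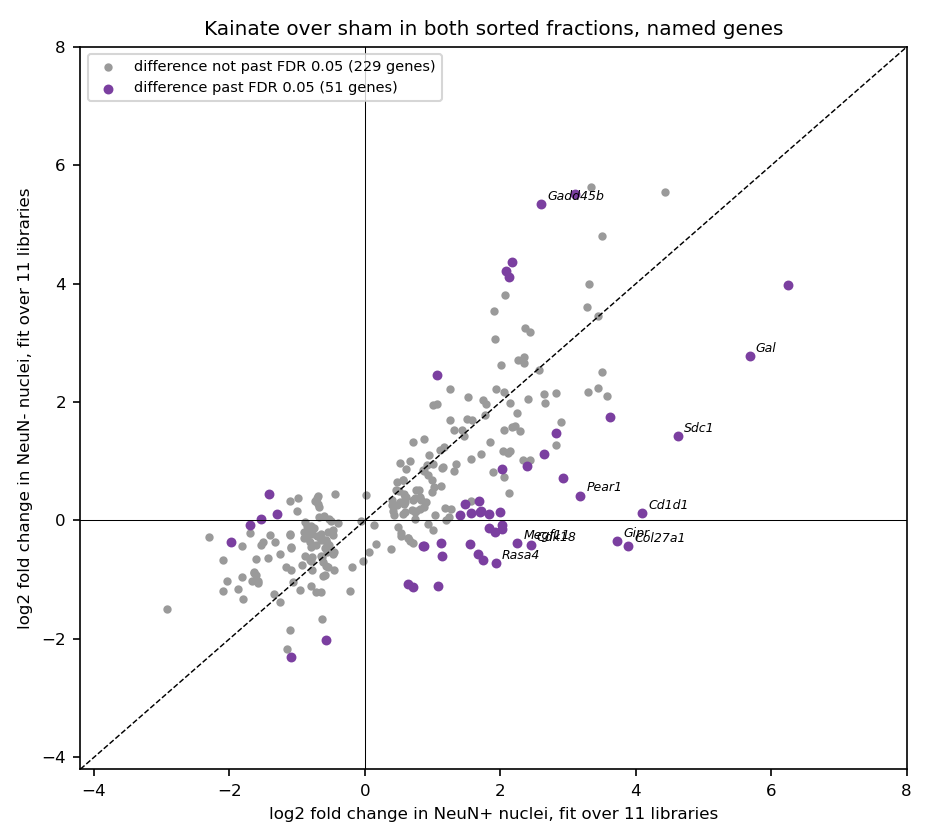
Log2 fold change of kainate over sham in NeuN+ nuclei (horizontal axis) and NeuN- nuclei (vertical axis) for the 280 genes named by rule, from the fit over 11 libraries, with a dashed line of equal effect. The 51 genes in purple had effects that differed at an adjusted p below 0.05, and the 10 with the largest differences are labelled.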

How the data were processed

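The authors sorted hippocampal nuclei by NeuN, made mRNA libraries with a SMART-Seq v4 kit, trimmed reads (Trim Galore 0.4.3 in the submitters' processing notes), aligned them to mm10 and counted them per gene with featureCounts on GENCODE M16 annotation. The deposited table holds raw counts per gene and was used as deposited; the strand setting of the counting is not given in the sources used here. Of 53379 genes, 105 without a symbol were removed (at most 0.0345% of a neuron library's counts). Genes that passed filterByExpr (minimum count 10) were normalised by TMM and fitted with glmQLFit and glmQLFTest in edgeR 4.0.16 (R 4.3.3, limma 3.58.1), with Benjamini-Hochberg adjustment and a threshold of 0.25. CPM are TMM-normalised and not per length, so they compare libraries, not genes. Columns of the 6 NeuN+ libraries gave the treatment comparison, and those of all 11 mRNA libraries the comparison with NeuN- nuclei. The comparison was defined with the replicate number as a block, and the residuals of libraries with the same number correlated (0.72, 0.22 and 0.62). The number is not tied to shared animals across treatments, and kainate replicate 2 correlated slightly more with sham replicate 3 (0.26), and sham replicate 2 clearly more with kainate replicate 3 (0.54), than with each other. Libraries came from pools of mice, so p-values of the blocked fit cover the spread of kainate and sham differences between pools of the same number. Total counts of 19391118 to 45428465 set the counting precision.

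Named genes were, per list and direction, up to 6 called members with the smallest p, where none was called the 2 with the highest mean CPM, the 12 called genes outside the lists with the smallest p in each direction and no clone name, and defining markers. Mir132, Mir212, Btg2, Dusp1, Scg2 and Prox1 were chosen after their values were seen. The listed genes Icer and Spry3 matched no symbol, and Cntf, Ptgdr, Tagln and mt-Atp8 did not pass the filter. The members and lists were chosen with earlier results of these data known. Alternatives were no block, DESeq2 1.42.0 size factors and its Wald test, other filters, all 11 libraries, other edgeR settings, genes without a symbol and leaving out each library; leaving out libraries of the 11-library fit and both replicate 1 libraries, and the block on the pool, were added after seeing the data. The steps were tested on simulated counts. Exon overlaps were read from GENCODE M21, and sequences from RefSeq tables on GRCm38.p6. Some genes that the rule named are not reported here. Bisulfite samples of the series were not used here.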

Additional observations from a re-analysis of the deposited data

Results flagged for a closer look

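For 51 of the named genes the kainate effect differed between NeuN+ and NeuN- nuclei at an edgeR adjusted p below 0.05 in the fit over 11 libraries, which is why they are given here. The effect was more positive in NeuN+ nuclei for 40 and more negative for 11. The values are the log2 fold change in NeuN+ nuclei minus that in NeuN- nuclei. A positive value need not be a rise in NeuN+ nuclei: Gpr17 and Bcan were called lower there. In NeuN- nuclei 6 of 10 astrocyte, 6 of 10 oligodendrocyte precursor and 5 of 10 oligodendrocyte markers were lower, and 1 astrocyte marker was higher. Differences of at least 2 were Col27a1 4.32, Gipr 4.08, Cd1d1 3.98, Sdc1 3.19, Gal 2.90, Cdk18 2.86, Pear1 2.76, Rasa4 2.66, Megf11 2.63, Adamts6 2.40, Trh 2.27, Kcnip3 2.23, Crispld2 2.21, Plxnb1 2.18, Prex1 2.18, Ecel1 2.10 and Ptgs1 2.10. Differences between 1.5 and 2 were Trib2 1.96, Neat1 1.94, Tll1 1.88, Col5a3 1.85, Slc1a2 1.83, Sema4a 1.73, Hsd11b1 1.72, Notch1 1.72, Sox9 1.56, Rgs2 1.55, Csf1r 1.51 and Pmepa1 1.51. The other positive differences were Prss23 1.47, Pcsk1 1.44, Bcan 1.44, Pros1 1.35, Cemip2 1.34, Kcnk1 1.31, Aqp4 1.30, Cacna2d2 1.29, Gpr17 1.21, Spred1 1.20 and Vegfa 1.16. The negative differences were Cebpb -1.39, Dcn -1.41, Plcg2 -1.57, Lct -1.61, Cxcl12 -1.62, Otof -1.86, Tnfrsf12a -1.99, Egr1 -2.14, Serpina3n -2.20, Fos -2.41 and Gadd45b -2.74. The list holds secreted peptides and a convertase, Trh, Gal and Pcsk1, and genes known from glia such as Sox9, Aqp4, Slc1a2, Csf1r and Gpr17. The mean CPM of each of these 5 was higher in NeuN- than in NeuN+ libraries of each treatment. Of the 51, only Cd1d1 was called at 0.25 without the replicate block. With a block on the pool of hippocampi that both fractions share, 6 of the 51 were called, Cd1d1, Col27a1, Gipr, Megf11, Rasa4 and Sdc1, and all 51 kept their direction.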

How the results depend on the processing

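Of 270 called genes named by rule, none changed direction under the alternatives run and 111 kept their call in each. The replicate block decided most calls: with no replicate block 324 genes were higher and 66 lower against 1607 and 1027, and for the comparison of NeuN+ with NeuN- nuclei 1 gene was called against 788, and 9 with a block on the pool of hippocampi. At an adjusted p below 0.05 the counts were 823 and 427. Leaving out 1 library gave 565 to 2458 genes higher and 198 to 2337 lower, the low ends without kainate replicate 3 and the high ends without kainate replicate 2, and 283 to 2783 genes for the comparison of fractions, the low end without sham NeuN- replicate 1 and the high end without sham NeuN- replicate 3. Counts under DESeq2 size factors (1521 and 1037), the DESeq2 Wald test (1583 and 1087), no filter (1463 and 1033), a filter of 1 CPM in 3 libraries (1461 and 1409), all 11 libraries (1299 and 773), edgeR without the legacy setting (1696 and 1147), a robust fit (1615 and 1027) and genes without a symbol kept (1610 and 1031) stayed within 1.5 times of the reported counts. The share of calls that were higher was 61.01% in the fit reported, 50.91% with the CPM filter and 83.08% without the block. Among the list medians, that of the mitochondrially encoded genes moved, from 0.35 to 0.68 without both replicate 1 libraries. Of the 270 genes, 49 lost their call without the block only and 59 without the block and without either replicate 3 library. With 3 pools per treatment, changes of genes near the threshold are not resolved.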
